A study of Mus musculus with 12 samples.

Results

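The sterol and fatty acid synthesis genes are a list of 31 mouse genes that build cholesterol and fatty acids from acetyl-CoA or control that synthesis. They were followed in the oviduct, the tube that carries the egg and early embryo from ovary to uterus, over the estrous cycle. Members were chosen by gene symbol, and an older alias of the same gene was accepted. The 31 genes divide into a sterol arm of 17 enzymes, a fatty acid arm of 9 enzymes, and 5 regulators and sterol transport genes. Of 16593 genes named on the array, 28 were members, and these 28 were read by 37 of the 25697 probes. The other 3 members, Acat2, Mvk and Fdft1, were not analysed here.

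All samples were oviducts of ICR mice aged 6 weeks, taken at proestrus, estrus, metestrus or diestrus, with 3 arrays at each of the 4 stages and no other treatment given in the labels. Total RNA was turned into biotin-labelled cRNA and hybridised to Illumina bead arrays, which read 1 brightness per probe. The labels do not say whether the arrays of a stage came from separate mice or from pooled tissue, and p-values here reflect array-to-array spread, which may be technical. In whole tissue, fewer cells of a type and less RNA per cell cannot be told apart.

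Cholesterol is made by the mevalonate pathway, in which Hmgcs1 and the enzymes after it build an isoprenoid chain that becomes squalene. Sqle oxidises squalene, Lss closes that product into the first sterol, and a series of demethylations and reductions ends in cholesterol. Fatty acids are made from cytosolic acetyl-CoA by Acaca and Fasn, then lengthened by elongases such as Elovl6 and desaturated by the Scd and Fads enzymes. Both arms are known targets of the SREBP transcription factors, encoded by Srebf1 and Srebf2. These are held in the endoplasmic reticulum by Scap and Insig1 when sterol is plentiful and released to the nucleus when it is scarce.

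The promoters of the sterol arm are shown because 11 of its 14 tested genes were highest at proestrus. Windows of 250 bases before an annotated transcript start were taken from RefSeq on build GRCm38.p6 for the 24 members that matched, and a gene with several starts was counted when any of its windows held a motif. Both strands were searched for the sterol element TCACNCCAC, the E-box CACGTG, the NF-Y box CCAAT and the Sp1 box GGGCGG, and matches stand in capitals on the strand of the gene, so a reverse-strand NF-Y box reads ATTGG and a reverse-strand Sp1 box reads CCGCCC. Hmgcs1 is given as the member with an exact match to the sterol element. Lss, Cyp51, Msmo1, Nsdhl and Dhcr7 are given as enzymes that passed a test below, and Elovl6 as a member of the other arm that also did.
Hmgcs1 (chr13:119690101-119690350, + strand): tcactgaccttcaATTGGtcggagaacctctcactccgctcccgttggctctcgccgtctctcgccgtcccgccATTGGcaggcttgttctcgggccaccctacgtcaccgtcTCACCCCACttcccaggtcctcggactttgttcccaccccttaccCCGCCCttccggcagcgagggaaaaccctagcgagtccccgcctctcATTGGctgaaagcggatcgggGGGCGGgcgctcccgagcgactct
Lss (chr10:76531355-76531604, + strand): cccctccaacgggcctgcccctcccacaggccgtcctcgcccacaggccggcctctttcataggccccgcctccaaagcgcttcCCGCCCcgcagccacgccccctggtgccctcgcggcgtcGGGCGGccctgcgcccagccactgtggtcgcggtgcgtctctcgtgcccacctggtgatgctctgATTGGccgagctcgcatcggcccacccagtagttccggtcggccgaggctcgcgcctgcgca
Cyp51 (chr5:4104698-4104947, - strand): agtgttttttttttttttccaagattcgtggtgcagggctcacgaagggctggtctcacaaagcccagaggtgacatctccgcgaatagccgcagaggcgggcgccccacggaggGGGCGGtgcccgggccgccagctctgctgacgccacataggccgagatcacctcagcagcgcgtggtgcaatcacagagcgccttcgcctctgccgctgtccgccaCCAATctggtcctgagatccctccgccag
Msmo1 (chr8:64733579-64733828, - strand): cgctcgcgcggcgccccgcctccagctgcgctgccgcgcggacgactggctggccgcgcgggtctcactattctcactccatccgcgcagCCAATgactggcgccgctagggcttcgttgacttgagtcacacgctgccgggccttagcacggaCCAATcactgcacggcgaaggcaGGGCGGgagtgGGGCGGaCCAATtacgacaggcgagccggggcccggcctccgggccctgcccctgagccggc
Nsdhl (chrX:72918271-72918520, + strand): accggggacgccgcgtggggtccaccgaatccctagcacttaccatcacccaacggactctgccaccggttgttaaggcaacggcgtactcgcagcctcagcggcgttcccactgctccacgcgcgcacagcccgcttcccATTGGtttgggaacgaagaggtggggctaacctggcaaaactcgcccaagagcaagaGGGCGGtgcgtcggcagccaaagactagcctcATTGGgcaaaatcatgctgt
Dhcr7 (chr7:143822917-143823166, + strand): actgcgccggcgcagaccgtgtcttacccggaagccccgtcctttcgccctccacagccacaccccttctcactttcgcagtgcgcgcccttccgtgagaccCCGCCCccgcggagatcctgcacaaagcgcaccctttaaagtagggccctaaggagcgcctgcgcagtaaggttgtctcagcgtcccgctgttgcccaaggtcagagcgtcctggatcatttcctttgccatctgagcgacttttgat
Elovl6 (chr3:129532136-129532385, + strand): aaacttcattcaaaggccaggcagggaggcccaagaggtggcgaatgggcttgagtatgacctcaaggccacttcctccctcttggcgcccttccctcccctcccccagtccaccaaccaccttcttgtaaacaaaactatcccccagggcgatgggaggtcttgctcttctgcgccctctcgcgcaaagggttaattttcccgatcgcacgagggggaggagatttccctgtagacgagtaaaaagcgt

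An NF-Y box stood before 13 of the 14 sterol arm genes with a window (92.9%), against 2 of 6 fatty acid arm genes (33.3%) and 3 of 4 regulators. These 14 are not the 14 tested sterol arm genes. They include Acat2 and Mvk, which were not tested, and lack Fdps and Sqle, which were tested but had no window. Among all 8216 tested genes with a window, 40.8% had one. Acat2 was the sterol arm gene without it. The Sp1 box was found before 13 of 14 sterol arm genes, 3 of 6 fatty acid arm genes, 4 of 4 regulators and 62.2% of all tested genes. An exact match to the sterol element was found before Hmgcs1 alone among the members, 137 to 129 bases upstream of the start. It was found before 1.20% of all tested genes. Elements with other letters were not searched, so a member without this match is not shown to lack a sterol element. An E-box stood before 2 of 14 sterol arm genes, 0 of 6 fatty acid arm genes, 2 of 4 regulators (Scap and Insig1) and 9.76% of all tested genes. Msmo1 had 3 NF-Y boxes within 160 bases of its start, and Nsdhl had 2, the nearer 20 bases from the start. Dhcr7 has 3 annotated starts in the table: the window printed, at the 5′ end of the gene, had 1 Sp1 box, and both NF-Y boxes lay before another start. Elovl6 had no match to any of the 4 motifs, which says only that these letters are not in its window. Of 3 NF-Y boxes before Fasn, 2 overlapped each other on opposite strands; the motifs printed in capitals above do not overlap.

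**Figure D1:**
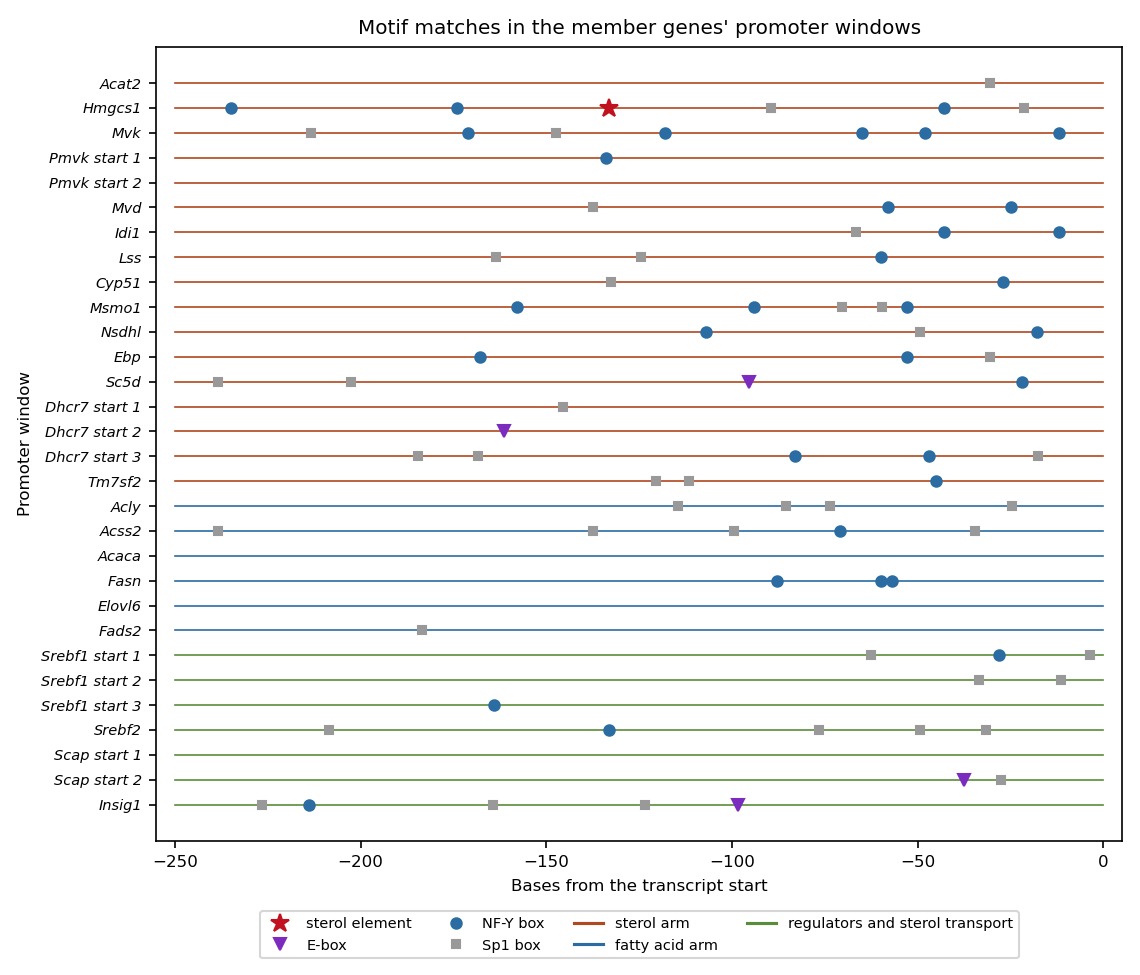
Motif matches in 30 windows of 24 member genes, by distance in bases from the transcript start; line colour gives the arm and marker shape the motif. NF-Y boxes lie before 13 of 14 sterol arm genes with a window and before 2 of 6 fatty acid arm genes, and Elovl6 has no marker.

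Values are given as log2 intensity after background correction and quantile normalisation, and levels of different probes are not compared. A gene was tested when its probe was detected (detection p under 0.01) on at least 3 of the 12 arrays, and all 28 members on the array passed among 10144 tested genes. Of these, 25 were detected on all 12 arrays, while Idi1, Sc5d and Fasn were detected on 4 arrays each, of which 3, 3 and 4 were replicate 1 arrays. Sc5d was detected on 2 proestrus, 1 estrus, 1 metestrus and 0 diestrus arrays, so it passed this filter only with its proestrus arrays. It is included below in the counts of sterol arm genes highest at proestrus or passing across the cycle with the block. The replicate 1 arrays were brighter, with median raw intensities of 139.4 to 156.3 against 99.25 to 104.7 for the others, and deviated together more than the others did. Each count of members is therefore also given with replicate number as a block. Of the markers of oviduct secretory cells, ciliated cells and smooth muscle, all 14 on the array were detected on every array. The summed linear intensity of 8 ovarian steroidogenic cell genes ran from 803 to 969 at proestrus, 1943 to 2202 at estrus, 334 to 475 at metestrus and 432 to 489 at diestrus, and Amh was detected on no array. In this sum both early stages thus lay above both late ones, with estrus above proestrus. Cyp11a1 and Star were instead lower at proestrus than later. Their log2 means were 6.25 and 4.72 at proestrus, 6.72 and 5.30 at metestrus and 6.58 and 5.29 at diestrus. Hsd3b1 was nearly level over these stages, at 4.61, 4.61 and 4.70. Inha, Cyp17a1, Inhba and Fshr had higher means at proestrus than at both later stages. Inhba and Cyp17a1 did not share the rise from proestrus to estrus: their log2 means were 8.03 and 7.28 at proestrus and 7.85 and 7.07 at estrus. The other tested genes of this list had higher means at estrus than at proestrus. The summed intensity of 8 oocyte genes ran from 294 to 453 at proestrus, 1220 to 1704 at estrus, 297 to 517 at metestrus and 514 to 797 at diestrus, and Zp1 and Zp2 were detected on no array. That of 4 genes of dividing cells ran from 654 to 837 at proestrus, 760 to 978 at estrus, 543 to 712 at metestrus and 481 to 658 at diestrus. Oocyte genes were thus highest at estrus and lower at proestrus than at diestrus, and those of dividing cells were higher at estrus than at metestrus or diestrus without overlap. The part of such cells in the sterol arm's pattern was not tested.

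The sterol arm as a group was highest at proestrus, intermediate at estrus and lowest at metestrus and diestrus. Relative to each gene's own mean over 12 arrays, the mean of its 14 tested genes was 0.46, 0.36 and 0.39 on the log2 scale on the proestrus arrays and 0.22, 0.14 and 0.23 on the estrus arrays. It was -0.20, -0.35 and -0.27 on the metestrus arrays and -0.33, -0.31 and -0.34 on the diestrus arrays. No proestrus array overlapped an estrus array, no estrus array overlapped a later one, and metestrus and diestrus overlapped. Of the 14 genes, 11 were highest at proestrus and 3 at estrus, with 28.6% of all tested genes highest at proestrus, and 9 were lowest at diestrus and 5 at metestrus. The fatty acid arm stayed between -0.10 and 0.16 on all 12 arrays, and its stages overlapped. The sterol arm exceeded the fatty acid arm by 0.15 to 0.38 on the 6 proestrus and estrus arrays and lay below it by 0.18 to 0.38 on the 6 metestrus and diestrus arrays. Genes are not replicates and the lists were not chosen blind to these data, so no p-value is given for these levels.

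**Figure D2:**
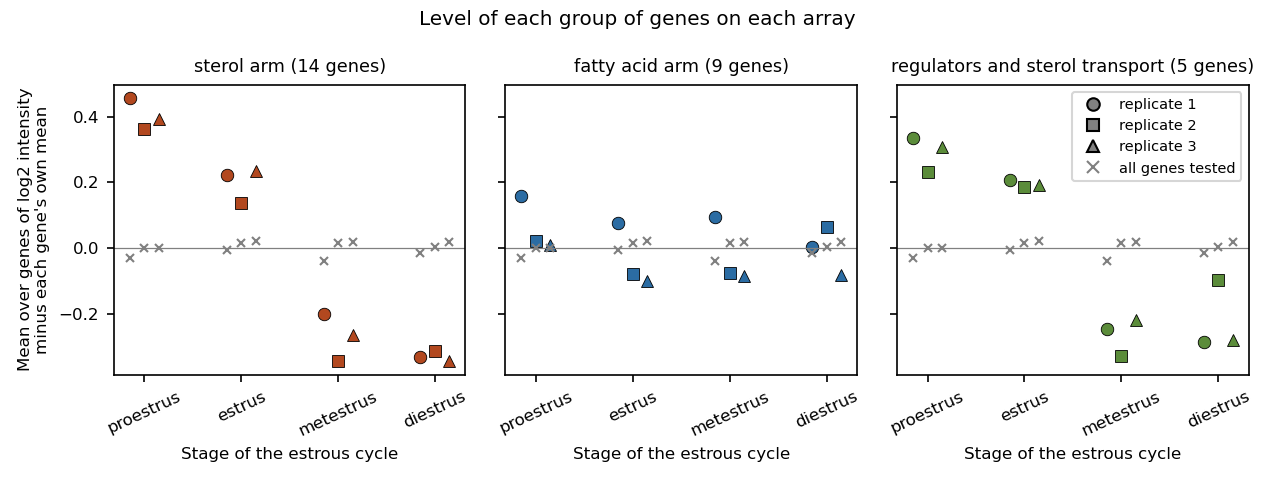
Mean log2 intensity of each group of genes, relative to each gene's own mean over 12 arrays, on every array by stage; marker shape gives the replicate number and crosses show all 10144 tested genes. The sterol arm lies above 0 on the 6 proestrus and estrus arrays and below 0 on the 6 metestrus and diestrus arrays, and the fatty acid arm stays between -0.10 and 0.16.

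Across the 4 stages, 5 of 28 members changed, against 5.37% of all tested genes: Fdps, Lss and Cyp51 of the sterol arm, Elovl6 of the fatty acid arm, and Srebf1 (limma's moderated F test, Benjamini-Hochberg adjusted p under 0.05 over 10144 genes). A replicate block raised this to 18 of 28, against 16.4% of all genes, namely 11 of 14 in the sterol arm, 3 of 9 in the fatty acid arm and 4 of 5 regulators and sterol transport genes. On the replicate 2 and 3 arrays alone 12 passed, while the count over all tested genes went from 545 to 1082. The median span between a gene's highest and lowest stage mean was 0.69 on the log2 scale in the sterol arm, 0.30 in the fatty acid arm, 0.67 in the regulators and 0.30 over all tested genes. The count of 5 was 3 without any 1 of the proestrus arrays, without estrus replicate 2 or 3, metestrus replicate 3 or diestrus replicate 2 or 3, and it was 10 without metestrus replicate 1. Over all tested genes the 545 calls became 345 to 428 in the fits with 3 members and 664 without metestrus replicate 1.

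**Figure D3:**
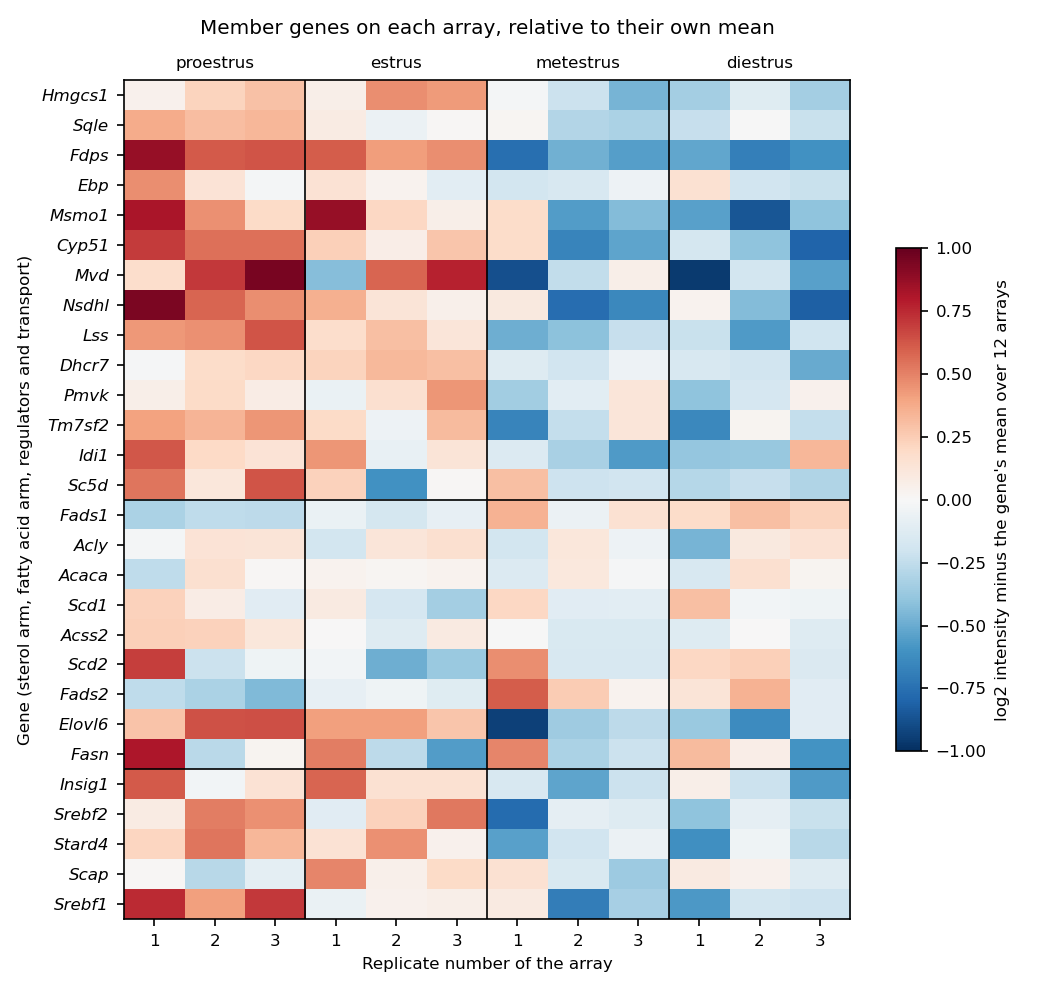
Log2 intensity of the 28 tested members on the 12 arrays, relative to each gene's mean, with genes in rows by arm and arrays in columns by stage and replicate number; red is above the mean and blue below. Most sterol arm rows are red at proestrus and blue at metestrus and diestrus, and Fads1 and Fads2 run the other way.

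In the early mevalonate steps, no gene passed without the block. Hmgcs1, which makes HMG-CoA, read 12.50, 12.68 and 12.75 at proestrus, 12.52, 12.93 and 12.88 at estrus, 12.44, 12.25 and 11.99 at metestrus and 12.12, 12.34 and 12.12 at diestrus. All metestrus and diestrus arrays lay below all proestrus and estrus arrays. Its adjusted p across the cycle was 0.081, or 0.026 with the replicate block, by limma. Mvd, the decarboxylase that yields isopentenyl diphosphate, read 7.89, 8.42 and 8.66 at proestrus, 7.29, 8.29 and 8.48 at estrus, 6.83, 7.47 and 7.77 at metestrus and 6.76, 7.53 and 7.17 at diestrus. Replicate 1 was lowest at every stage, and only proestrus stood clear of both metestrus and diestrus. Its adjusted p across the cycle was 7.8e-04 with the replicate block and 0.17 without it. Pmvk, the kinase before Mvd, and Idi1, the isomerase after it, spanned 0.36 and 0.66 between their highest and lowest stages and did not pass across the cycle in either fit.

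Fdps, which joins isoprene units into farnesyl diphosphate, had the lowest p of the 28 members. It read 11.65, 11.40 and 11.41 at proestrus, 11.39, 11.20 and 11.25 at estrus, 10.03, 10.31 and 10.23 at metestrus and 10.27, 10.10 and 10.18 at diestrus. The 6 proestrus and estrus arrays lay above the 6 later arrays with no overlap. The adjusted p across the cycle was 6.6e-05 by limma. Fdps fell 2.46-fold at metestrus against proestrus (log2 -1.30 ± 0.13, SE, adjusted p = 1.3e-04) and 2.13-fold at metestrus against estrus (log2 -1.09 ± 0.13, adjusted p = 5.2e-04). Between diestrus and metestrus it differed by -0.01 ± 0.13.

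Sqle, the squalene epoxidase, read 11.36, 11.29 and 11.32 at proestrus, 11.06, 10.93 and 10.99 at estrus, 11.005, 10.69 and 10.67 at metestrus and 10.76, 10.99 and 10.76 at diestrus. The proestrus arrays lay above all others, and the other 3 stages overlapped. Sqle rose at proestrus against diestrus by 0.49 ± 0.13 on the log2 scale (limma adjusted p = 0.0497) and fell at metestrus against proestrus by 0.53 ± 0.13 (adjusted p = 0.032). Its second probe differed by -0.34 ± 0.32 at metestrus against proestrus and did not pass (adjusted p = 0.71). Both Sqle calls were lost with the mean of its probes and without any 1 of the proestrus arrays, estrus replicate 2 or 3, or metestrus replicate 2 or 3, and the call against diestrus also without estrus replicate 1 or any 1 of the diestrus arrays.

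Lss, the lanosterol synthase, read 7.92, 7.95 and 8.11 at proestrus, 7.66, 7.78 and 7.61 at estrus, 6.99, 7.08 and 7.26 at metestrus and 7.27, 6.92 and 7.29 at diestrus. Its estrus arrays lay below proestrus and above metestrus without overlap, and metestrus and diestrus overlapped. Across the cycle its adjusted p was 0.0042 by limma. Lss fell 1.84-fold at metestrus against proestrus (log2 -0.88 ± 0.14, adjusted p = 0.0028) and was higher by 0.84 ± 0.14 at proestrus against diestrus (adjusted p = 0.0043). The difference at metestrus against estrus, -0.57 ± 0.14, had an adjusted p of 0.052, or 0.013 with the replicate block.

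The demethylation steps after lanosterol gave the next group. Cyp51, which removes the first methyl group, read 8.87, 8.72 and 8.72 at proestrus, 8.40, 8.24 and 8.45 at estrus, 8.35, 7.50 and 7.64 at metestrus and 7.99, 7.77 and 7.37 at diestrus. Proestrus stood above all other arrays, and metestrus replicate 1 lay within the estrus range. Its adjusted p across the cycle was 0.033 by limma, it rose at proestrus against diestrus by 1.06 ± 0.22 (adjusted p = 0.016), and it fell at metestrus against proestrus by 0.94 ± 0.22 (adjusted p = 0.029). Msmo1, which oxidises the remaining methyl groups, read 9.88, 9.53 and 9.26 at proestrus, 9.94, 9.28 and 9.13 at estrus, 9.25, 8.51 and 8.64 at metestrus and 8.52, 8.21 and 8.66 at diestrus. Replicate 1 was highest at the first 3 stages, and the proestrus and diestrus arrays did not overlap. Msmo1 rose at proestrus against diestrus by 1.09 ± 0.26 (adjusted p = 0.034), and at metestrus against proestrus it differed by -0.76 ± 0.26 (adjusted p = 0.13, or 0.011 with the block). The call of Cyp51 across the cycle was lost without any 1 of the proestrus or estrus arrays, metestrus replicate 3, or diestrus replicate 2 or 3. The call of Msmo1 at proestrus against diestrus was lost without proestrus replicate 1 or 2, estrus replicate 2 or any 1 of the diestrus arrays.

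Nsdhl, the dehydrogenase of the same demethylation, read 8.53, 8.18 and 8.06 at proestrus, 7.95, 7.73 and 7.65 at estrus, 7.69, 6.83 and 6.95 at metestrus and 7.63, 7.16 and 6.78 at diestrus. Proestrus lay above every other array, and metestrus replicate 1 reached into the estrus range. Nsdhl fell 2.14-fold at metestrus against proestrus (log2 -1.10 ± 0.26, limma adjusted p = 0.030) and rose at proestrus against diestrus by 1.07 ± 0.26 (adjusted p = 0.036). Its 4 probes differed by -1.17 to -0.96 at metestrus against proestrus, and 3 of the 4 passed when each probe was tested on its own. At metestrus against proestrus the calls of Cyp51 and Nsdhl were lost without any 1 of the proestrus arrays or without metestrus replicate 2 or 3. Both were also lost there on the arrays of the 2 stages alone. At proestrus against diestrus both were lost without any 1 of the proestrus arrays or diestrus replicate 2 or 3. That of Nsdhl was also lost there without estrus replicate 2 or 3, with median scaling, without the detection filter and on the arrays of the 2 stages alone.

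At the end of the pathway, Dhcr7, the last reductase before cholesterol, read 7.43, 7.62 and 7.64 at proestrus, 7.66, 7.76 and 7.74 at estrus, 7.31, 7.25 and 7.39 at metestrus and 7.28, 7.25 and 6.94 at diestrus. Its highest stage was estrus, whose arrays lay above all others. Dhcr7 rose at estrus against diestrus by 0.56 ± 0.13 (limma adjusted p = 0.043), a call lost with median scaling, without proestrus replicate 2 or 3, metestrus replicate 2 or 3, or any 1 of the estrus or diestrus arrays. The reductase Tm7sf2 passed across the cycle with the block, with an adjusted p of 0.042 against 0.19 without it. The isomerase Ebp had the smallest span of the arm, 0.33, and passed in neither fit. The desaturase Sc5d had an adjusted p of 0.29, or 0.048 with the block, and was detected on 4 arrays as given above.

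**Figure D4:**
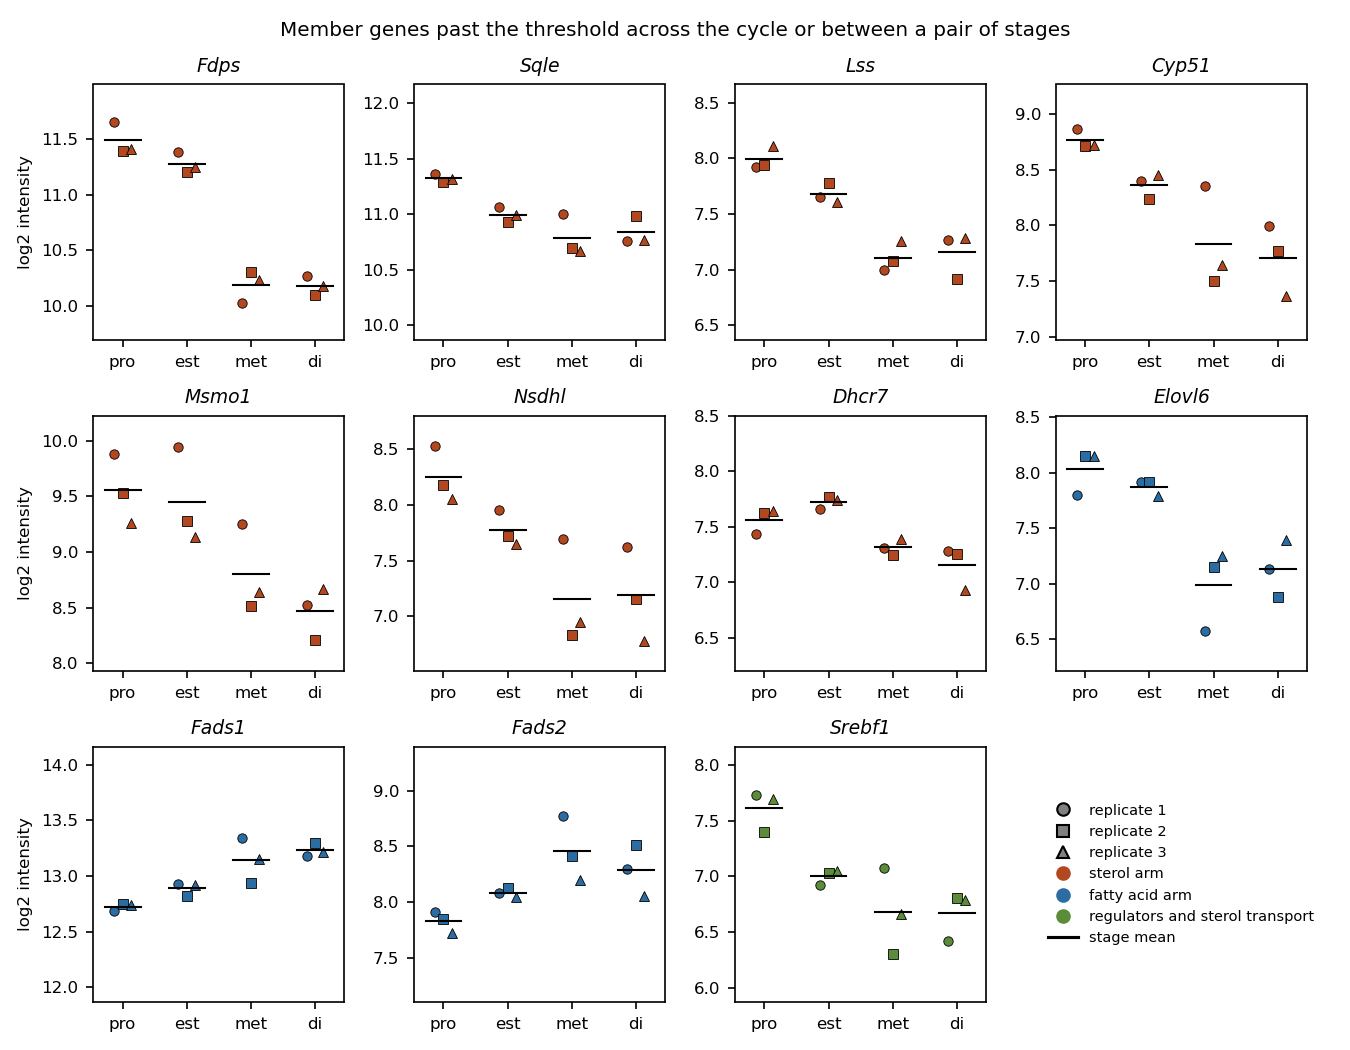
Log2 intensity on every array of the 11 members that passed across the cycle or between a pair of stages, by stage (pro, proestrus; est, estrus; met, metestrus; di, diestrus); marker shape gives the replicate number, colour the group of genes and the line the stage mean. Fdps at proestrus and estrus lies at 11.20 or above and at metestrus and diestrus at 10.31 or below, and Fads1 and Fads2 are lowest at proestrus.

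The fatty acid arm did not move as a group, and its 3 called members split in direction. Elovl6, which lengthens saturated and monounsaturated chains, read 7.80, 8.15 and 8.15 at proestrus, 7.92, 7.92 and 7.79 at estrus, 6.58, 7.15 and 7.25 at metestrus and 7.14, 6.88 and 7.39 at diestrus. Every proestrus and estrus array was above every later array, as for Fdps. Its adjusted p across the cycle was 0.011 by limma. Elovl6 fell 2.05-fold at metestrus against proestrus (log2 -1.04 ± 0.19, adjusted p = 0.0092) and by 0.88 ± 0.19 at metestrus against estrus (adjusted p = 0.034), where the call was lost on replicates 2 and 3 alone and without any 1 of the estrus arrays, proestrus replicate 2 or 3, metestrus replicate 1 or 2, or diestrus replicate 1. It rose at proestrus against diestrus by 0.89 ± 0.19 (adjusted p = 0.022), a call lost without proestrus replicate 2 or 3 or diestrus replicate 1 or 2.

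Fads1 and Fads2, the desaturases that make polyunsaturated fatty acids, ran the opposite way. Fads1 read 12.68, 12.75 and 12.74 at proestrus, 12.93, 12.82 and 12.92 at estrus, 13.34, 12.94 and 13.15 at metestrus and 13.18, 13.29 and 13.22 at diestrus. Proestrus was the lowest stage and diestrus lay above proestrus and estrus without overlap. Fads1 was lower at proestrus than at diestrus, by -0.51 ± 0.12 (limma adjusted p = 0.035). Fads2 read 7.91, 7.85 and 7.72 at proestrus, 8.08, 8.12 and 8.04 at estrus, 8.77, 8.42 and 8.20 at metestrus and 8.30, 8.51 and 8.05 at diestrus. Its proestrus arrays lay below all others, and it rose at metestrus against proestrus by 0.64 ± 0.16 (adjusted p = 0.044). Both calls were lost with arrays scaled to a common median in place of quantile normalisation, and without any 1 of the proestrus arrays, estrus replicate 2 or 3, or diestrus replicate 1. That of Fads1 was also lost without metestrus replicate 3 or diestrus replicate 2 or 3, and that of Fads2 without estrus replicate 1 or metestrus replicate 1 or 2 and on replicates 2 and 3 alone.

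The first steps of fatty acid synthesis showed little difference between stages. Acly, which makes cytosolic acetyl-CoA from citrate, and Acaca, which carboxylates it, spanned 0.16 and 0.05 on the log2 scale between their highest and lowest stages. Acss2, which makes acetyl-CoA from acetate, read 10.16, 10.15 and 10.03 at proestrus, 9.92, 9.79 and 10.01 at estrus, 9.91, 9.77 and 9.76 at metestrus and 9.79, 9.92 and 9.79 at diestrus. The proestrus arrays were highest without overlap, but its adjusted p across the cycle was 0.40 by limma, or 0.15 with the block. Scd2, a desaturase of saturated chains, read 9.46, 8.56 and 8.73 at proestrus, 8.74, 8.28 and 8.40 at estrus, 9.23, 8.61 and 8.61 at metestrus and 8.97, 9.01 and 8.63 at diestrus, with an adjusted p of 0.80. Its stages overlapped, as did those of Scd1, which spanned 0.22, and of Fasn, which spanned 0.29 and was detected on the replicate 1 arrays only. The summed linear intensity of 11 adipocyte genes ran from 3721 to 4143 at proestrus, 5001 to 5236 at estrus, 4265 to 4698 at metestrus and 4450 to 4814 at diestrus, and Plin1, Fabp4 and Retn were detected on no array. Its part in these values was not tested.

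Among the regulators, Srebf1 was the one called. Srebf1 read 7.73, 7.40 and 7.70 at proestrus, 6.93, 7.03 and 7.05 at estrus, 7.08, 6.30 and 6.66 at metestrus and 6.42, 6.81 and 6.79 at diestrus. Proestrus stood above the other 3 stages, estrus stood above diestrus, and metestrus overlapped both. Its adjusted p across the cycle was 0.029 by limma, and it rose at proestrus against diestrus by 0.94 ± 0.19 (adjusted p = 0.016). At metestrus against proestrus Srebf1 fell by 0.93 ± 0.19 (adjusted p = 0.015). Its call across the cycle was lost without any 1 of the proestrus arrays, without estrus or diestrus replicate 2 or 3 or without metestrus replicate 3. Both of its pair calls were lost without proestrus replicate 1 or 3, that against diestrus also without diestrus replicate 1, and that at metestrus also without metestrus replicate 2 or 3.

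Srebf2, the factor best known for sterol synthesis genes, read 8.95, 9.38 and 9.32 at proestrus, 8.76, 9.10 and 9.40 at estrus, 8.10, 8.78 and 8.74 at metestrus and 8.47, 8.78 and 8.65 at diestrus. Replicate 1 was lowest at every stage, and proestrus did not overlap metestrus or diestrus. At metestrus against proestrus Srebf2 differed by -0.68 ± 0.22 (limma adjusted p = 0.10, or 0.0030 with the replicate block). Insig1, which retains SREBPs and is itself a known SREBP target, read 9.82, 9.18 and 9.35 at proestrus, 9.79, 9.36 and 9.36 at estrus, 9.05, 8.68 and 8.99 at metestrus and 9.27, 8.998 and 8.64 at diestrus. Its metestrus arrays lay below all proestrus and estrus arrays, with an adjusted p across the cycle of 0.22, or 0.013 with the block, and its 3 kept probes differed by -0.88 to -0.55 at metestrus against proestrus. Stard4, a sterol transfer protein, read 8.41, 8.72 and 8.53 at proestrus, 8.33, 8.65 and 8.23 at estrus, 7.64, 8.001 and 8.13 at metestrus and 7.58, 8.15 and 7.92 at diestrus. All its proestrus and estrus arrays were above all later ones, and its adjusted p across the cycle was 0.099, or 0.0054 with the block.

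Scap, the escort of SREBPs, did not follow the other regulators. It read 8.12, 7.82 and 8.01 at proestrus, 8.59, 8.15 and 8.29 at estrus, 8.25, 7.95 and 7.74 at metestrus and 8.19, 8.14 and 7.97 at diestrus. Estrus was its highest stage and lay above proestrus without overlap, but it overlapped metestrus and diestrus. Scap passed in neither fit, with an adjusted p across the cycle of 0.56 by limma, or 0.10 with the block.

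The step from proestrus to estrus gave no call. At estrus against proestrus 0 of 28 members passed, against 1.02% of all tested genes, and 5 had an unadjusted p under 0.05 in limma (4 lower, 1 higher). The count with the replicate block was also 0, against 3.06% of all genes, and 9 had an unadjusted p under 0.05. The median difference was -0.23 in the sterol arm, -0.16 in the fatty acid arm, -0.13 in the regulators and 0.0048 over all tested genes. For 6 of 14 sterol arm genes all estrus arrays lay below all proestrus arrays, against 5.73% of all genes.

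At metestrus against estrus the sterol arm was lower in 13 of 14 genes, and Fdps and Elovl6 fell. These are 2 of 28 members, both lower, against 1.77% of all genes called lower. With the replicate block 10 fell, against 4.68%: Hmgcs1, Mvd, Fdps, Lss, Msmo1 and Nsdhl of the sterol arm, Elovl6, and Srebf2, Insig1 and Stard4. The median difference was -0.52 in the sterol arm, 0.09 in the fatty acid arm, -0.48 in the regulators and 0.02 over all tested genes. The sterol median was -0.35 on intensities without background correction, still with 13 of 14 below 0. Of 7 tested ovarian steroidogenic genes, 6 fell in the same comparison, with a median of -1.39. Of 6 tested oocyte genes 5 fell, or 6 with the block, with a median of -1.91, and of 4 tested genes of dividing cells Birc5 fell, or 3 with the block, with a median of -0.43. The part of these cells in the members' differences was not tested. The count of 2 was 1 without any 1 of the estrus arrays, without proestrus replicate 2 or 3, metestrus replicate 2 or diestrus replicate 1. In the same fits the 250 calls over all tested genes became 147 to 245.

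The step from metestrus to diestrus gave no call either. At diestrus against metestrus 0 of 28 passed in limma with or without the block, against 0.069% and 0.296% of all genes, and 0 had an unadjusted p under 0.05 in either fit. Medians were -0.03 in the sterol arm, 0.02 in the fatty acid arm and 0.06 in the regulators, beside 0.0011 over all tested genes.

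Among the 6 pairs of stages, proestrus against diestrus gave the most calls. Fdps, Sqle, Lss, Cyp51, Msmo1, Nsdhl, Elovl6 and Srebf1 were higher at proestrus, 8 of 28 members against 2.21% of all genes, and Fads1 was lower, 1 of 28 against 2.65%. With the replicate block 15 were higher, against 6.95%, and 2 lower, against 9.31%. All 14 sterol arm genes had positive differences, with a median of 0.69, against 0.04 in the fatty acid arm, 0.59 in the regulators and -0.02 over all tested genes. In 12 of 14 sterol arm genes every proestrus array was above every diestrus array, against 11.5% of all genes. The 12 include Sc5d, which was detected on 2 proestrus arrays and 0 diestrus arrays. Of the 6 tested oocyte genes 2 were lower in this comparison, with a median of -0.80, and of 4 genes of dividing cells Birc5 was higher, with a median of 0.34. Of 7 tested ovarian steroidogenic genes 3 were higher, namely Inha, Cyp17a1 and Inhba, and the median of the 7 was 0.27. The part of these cells was not tested. The 9 calls became 3 without any 1 of the proestrus arrays or diestrus replicate 2, 4 without diestrus replicate 1 or 3 and 5 without estrus replicate 2. Over all tested genes the 493 calls became 266 to 332 without 1 proestrus array, 270 to 365 without 1 diestrus array and 370 without estrus replicate 2. With median scaling the 9 calls were all higher, and none lower.

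At estrus against diestrus Fdps rose by 1.10 ± 0.13 (limma adjusted p = 5.5e-04) and Dhcr7 as given above, 2 of 28 members against 1.65% of all genes called higher. In the fit with the replicate block 12 rose, against 4.02%: 8 of the sterol arm, Elovl6, and Srebf2, Insig1 and Stard4. The median difference was 0.55 in the sterol arm, -0.03 in the fatty acid arm, 0.46 in the regulators and -0.01 over all tested genes. Of 6 oocyte genes 4 rose as well, with a median of 1.32, and of 4 genes of dividing cells Birc5 rose, with a median of 0.51. Of 7 tested ovarian steroidogenic genes 6 rose, with a median of 1.35. The part of these cells was not tested. The count of 2 was 5 without metestrus replicate 1, and 1 without any 1 of the estrus or diestrus arrays, proestrus replicate 2 or 3, or metestrus replicate 2 or 3. Over all tested genes the 225 calls became 169 and 182 without proestrus replicate 2 or 3 and 166 and 110 without estrus replicate 1 or 2.

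At metestrus against proestrus Fdps, Sqle, Lss, Cyp51, Nsdhl, Elovl6 and Srebf1 fell, 7 of 28 members against 2.43% of all genes, and Fads2 rose, 1 of 28 against 2.91%. With the replicate block 14 fell, against 7.21%, and 2 rose, against 9.26%. The median difference was -0.66 in the sterol arm, with all 14 genes below 0, -0.10 in the fatty acid arm, -0.63 in the regulators and 0.02 over all tested genes. All metestrus arrays lay below all proestrus arrays for 12 of 14 sterol arm genes and for 2 of 9 fatty acid arm genes, against 10.2% of all genes. Of 7 tested ovarian steroidogenic genes 3 fell, with a median of -0.52, and with the block 1 also rose. Of 6 tested oocyte genes 0 passed, or 2 with the block, both higher, with a median of 0.16. Of 4 tested genes of dividing cells 0 passed in either fit, with a median of -0.26. The part of these cells was not tested. The 8 calls became 3 without proestrus replicate 1 or 3 or metestrus replicate 2, and 4 without proestrus replicate 2 or metestrus replicate 3. With median scaling there were 8 lower and 0 higher. The 6 pairs of stages share arrays, so a gene's calls in several pairs are not separate evidence.

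**Figure D5:**
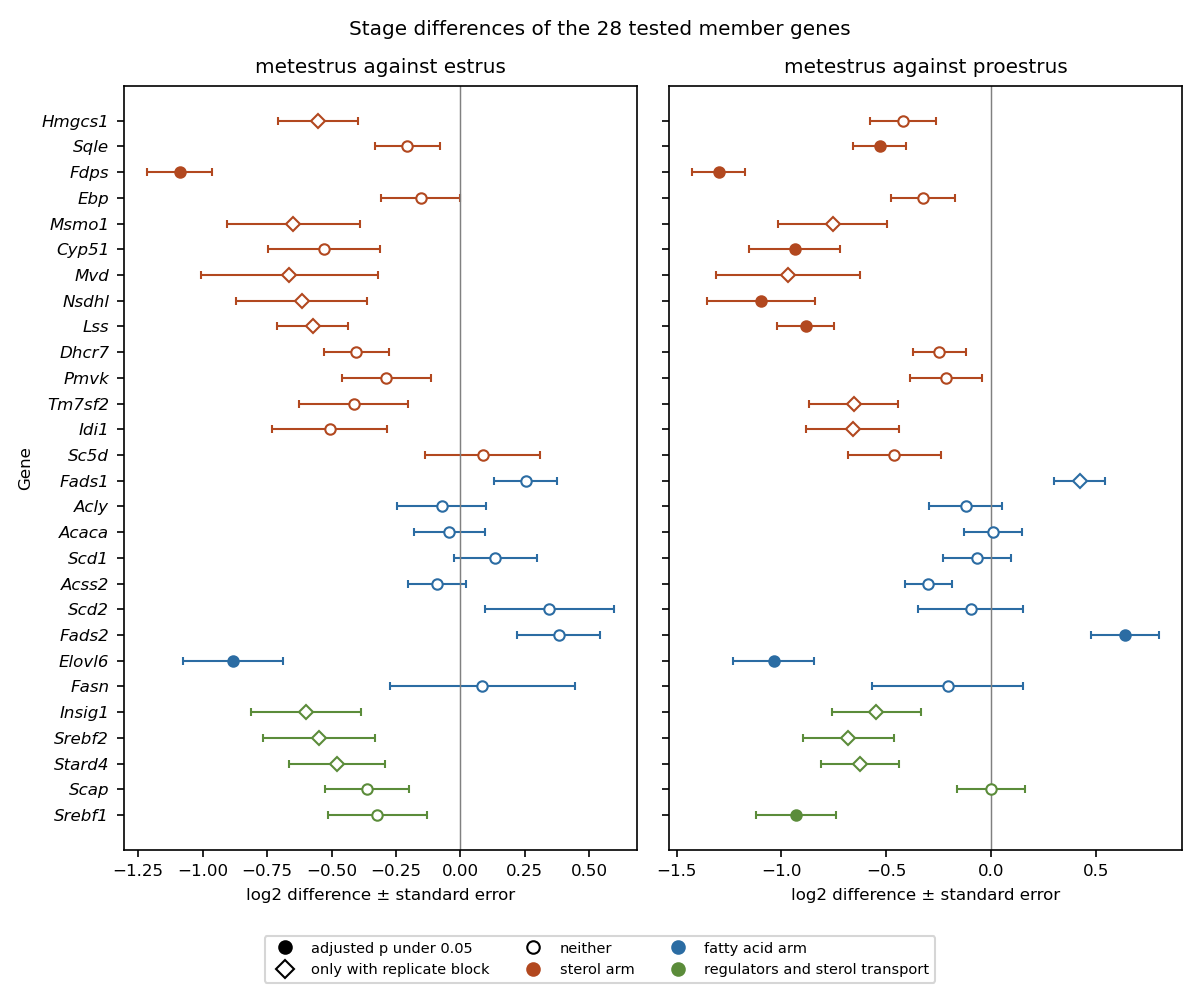
Log2 difference with its standard error for each of the 28 tested members at metestrus against estrus (left) and metestrus against proestrus (right); filled circles passed at an adjusted p under 0.05, diamonds passed only with the replicate block, and colour gives the group of genes. Of the 14 sterol arm points, 13 lie left of 0 in the left panel and 14 in the right, and Fads2 passed on the right of 0 at metestrus against proestrus.

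Other genes of these pathways, listed apart from the members, moved less uniformly. Of 6 other sterol synthesis genes 2 were tested, and Hsd17b7, a reductase of the same demethylation steps that also acts on estrogens, changed in a different order. It read 8.71, 9.04 and 8.99 at proestrus, 9.07, 9.28 and 9.32 at estrus, 8.09, 8.51 and 8.34 at metestrus and 9.28, 9.55 and 9.78 at diestrus. Metestrus was lowest, as in 5 of the 14 sterol arm genes, but diestrus was highest, as in none of them. Hsd17b7 fell at metestrus against estrus by 0.91 ± 0.17 (limma adjusted p = 0.011) and rose at diestrus against metestrus by 1.22 ± 0.17 (adjusted p = 0.021), where 0 of 28 members passed.

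Of 15 genes of sterol uptake, storage, export and control, 6 were tested. Across the cycle 0 passed, or 3 with the replicate block, against 5.37% and 16.4% of all genes. These were Abcg1, the HDL receptor Scarb1 and Nr1h3, which encodes a sterol-sensing nuclear receptor, and the last pair had adjusted p of 0.0018 and 0.0022 with the block, against 0.20 and 0.36 without it. Between stages, Abcg1 was the one called without the block. Abcg1, a cholesterol exporter, read 5.44, 5.98 and 5.25 at proestrus, 5.94, 6.27 and 6.12 at estrus, 5.99, 6.76 and 6.47 at metestrus and 6.70, 6.42 and 6.51 at diestrus. It was lower at proestrus than at diestrus, by -0.99 ± 0.22 (limma adjusted p = 0.026), and rose at metestrus against proestrus by 0.85 ± 0.22 (adjusted p = 0.048). Both differences had the opposite sign to the sterol arm's. The block made each of these counts 3 of 6, lower at proestrus than at diestrus, against 9.31% of all genes, and higher at metestrus than at proestrus, against 9.26%. Of 21 other fatty acid and lipid synthesis genes, 18 were tested. Across the cycle 1 of the 18 passed, against 5.37% of all genes, or 4 with the block, against 16.4%. Me1, malic enzyme, which supplies NADPH for lipid synthesis, read 8.53, 8.44 and 8.26 at proestrus, 9.66, 9.33 and 9.35 at estrus, 8.65, 7.99 and 8.19 at metestrus and 8.44, 8.12 and 8.35 at diestrus. The estrus arrays stood above all others, and Me1 fell at metestrus against estrus by 1.17 ± 0.18 (adjusted p = 0.0035). Slc25a1, the mitochondrial citrate carrier, fell at metestrus against proestrus by 0.65 ± 0.16 (adjusted p = 0.036). With the block 3 of the 18 fell in that comparison, against 7.21% of all genes, and 1 rose, against 9.26%. At proestrus against diestrus 4 were higher with the block, against 6.95%, and 0 passed without it.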

How the data were processed

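Oviduct RNA of 4 estrous stages was measured on 12 Illumina 1-colour bead arrays. Per the file headers, the deposited table pairs every probe's unnormalised intensity with its detection p-value on each array. No background subtraction was evident in the intensity values, and no software is named in the labels or headers. A second deposited table holds the authors' background-subtracted intensity values, which by their distributions were quantile normalised apart for replicate 1 and for replicates 2 and 3. Its scale is linear, with medians of 46.68 to 46.76 and 23.39 to 23.43, and its values run in the same direction as the raw ones.

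The deposited raw intensity values were corrected with neqc of limma 3.58.1 in R 4.3.3 (normexp from detection p-values, quantile over 12 arrays, offset 16) and put on a log2 scale. Of 25697 probes, 14778 with detection p under 0.01 on at least 3 arrays were kept, and the highest-mean probe stood for each of 10144 genes. Probes were named through the platform annotation, with symbols updated by gene ID. limma was fitted with 1 mean per stage (8 residual degrees of freedom) and Benjamini-Hochberg adjustment over all genes tested, threshold 0.05, and was tested on simulated data. The number of arrays limits the precision.

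The replicate numbers are those of the sample titles. Deviations from the stage mean correlated at 0.62 to 0.81 between arrays numbered 1, 0.26 to 0.51 for 2 and 0.36 to 0.55 for 3, against 0.22 to 0.54 between 2 and 3 at different stages. By the rule that every same-number correlation exceeds 0.1 the numbers were taken as pairs, and the fit with the block is given beside the counts. Correlations between 2 and 3 also exceed 0.1, so this rule does not separate replicate 2 from replicate 3. The arrays numbered 1 alone stood apart.

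Values on every array are given for members called in any test, for Srebf1, Srebf2, Scap and Insig1, and for the 2 uncalled members of lowest p in each group. Hsd17b7, Abcg1, Me1 and Slc25a1 are the genes of the other pathway lists that passed a test. Members, lists and the named-gene rule were chosen with earlier results of these data known. Alternatives covered the block, the array set, background correction, scaling, the deposited values, the detection filter, the probe summary, the stages in the fit and each left-out array.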

Additional observations from a re-analysis of the deposited data

How the results depend on the processing

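No named call of a member, and not the sterol arm median at metestrus against estrus, changed direction under the alternatives tried. The sterol arm's other medians, Hsd17b7, Abcg1, Me1 and Slc25a1 were not run under all of them. At diestrus against metestrus 9 of 14 sterol arm genes lay below 0, or 7 with median scaling. The 5 members called across the cycle became 18 with the replicate block, 17 with the array set as a block, 12 on replicates 2 and 3 only, 10 without background correction, 8 with median scaling, 0 on the deposited values and 18 on the deposited values with the replicate block. Over all tested genes the 545 called became 1659, 1886, 1082, 611, 538, 66 and 1440 under the same alternatives, in that order. At metestrus against estrus the 2 calls became 10 with the replicate block, 11 with the array set block, 5 on replicates 2 and 3 only, 0 on the deposited values, 10 on these with the replicate block and 1 on the arrays of the 2 stages alone. Over all tested genes the 250 calls became 847, 966, 475, 53, 764 and 98 in that order. At proestrus against diestrus the 9 became 17 with the replicate block, 18 with the array set block, 0 on the deposited values and 15 on these with the block. Over all tested genes the 493 became 1649, 1795, 20 and 1427 in that order. At estrus against diestrus the 2 became 12 and 12 with these blocks, 9 on replicates 2 and 3 only, 1 with median scaling, 0 on the deposited values, 8 on these with the replicate block and 1 on the arrays of the 2 stages alone. Over all tested genes the 225 became 700 and 813 with the blocks, 619 on replicates 2 and 3 only and 200 with median scaling. On the deposited values the count was 37, or 594 with the replicate block. At metestrus against proestrus the 8 became 16 and 17 with these blocks, 0 on the deposited values, 16 on these with the replicate block and 2 on the arrays of the 2 stages alone. Over all tested genes the 541 became 1670 and 1827 with the blocks. Leaving out 1 array gave 3 to 10 calls across the cycle, 1 to 3 at metestrus against estrus, 3 to 12 at proestrus against diestrus, 1 to 5 at estrus against diestrus, 3 to 8 at metestrus against proestrus, and 0 at estrus against proestrus and at diestrus against metestrus. Across the cycle the count over all tested genes then ran from 345 to 664. The sterol median at metestrus against estrus ran from -0.52 to -0.42 on left-out arrays and was -0.35 without background correction. The fatty acid median, 0.09 with all arrays, ran from -0.0080 without estrus replicate 3 to 0.25 without estrus replicate 1, so its sign rested on single arrays. The deposited values without a block carry the offset between their separately normalised sets, and the cause of the other changes was not tested. Every call of Fdps and Lss held in 22 of 23 alternatives for a pair of stages and 21 of 22 across the cycle, and was lost on the deposited values without a block. Sqle, Dhcr7, Fads1, Fads2, Elovl6 at metestrus against estrus and Nsdhl at proestrus against diestrus kept their calls in 9 to 13 of 23. Across the cycle Cyp51 and Srebf1 kept theirs in 12 and 13 of 22. On the arrays of the 2 stages alone, every call of Sqle, Nsdhl, Dhcr7, Fads1 and Fads2 between stages was lost. So were those of Cyp51 and Srebf1 at metestrus against proestrus and of Elovl6 at metestrus against estrus and against proestrus. In all comparisons the median of all genes shifted by less than 0.06 under any scaling. Near background, Idi1, Sc5d and Fasn have limited precision.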
